A study of Mus musculus with 6 samples.

Results

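The R3 interval is a stretch of mouse chromosome 12 that one of the study's congenic strains carries from the SM/J strain on an A/J background. The genes described here are those that the study's gene list places in this interval and that have an array probe set of their own. Of 108 genes listed, 58 met the rule, out of 18194 genes measured, and the other 50 had no probe set of their own and were not analysed here. Liver RNA came from male mice of the A/J-12SM consomic strain, which has the whole chromosome 12 of SM/J in place of that of A/J, and from male mice of the A/J strain, which is the background strain of the consomic mice. Both strains were given a high-fat diet for 7 weeks, from 6 to 13 weeks of age in the study's feeding schedule. Each array held RNA pooled from 3 mice, and there were 3 arrays per strain, labelled as biological replicates. As the consomic mice carry SM/J alleles along all of chromosome 12, a difference in an R3 gene cannot be told apart from an effect of another SM/J locus on that chromosome. The R3 congenic mice themselves were not analysed here.

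The members extend over chromosome 12 from base 29527590 to base 46819480 in GRCm38.p6, a span of 17291891 bases. They were brought together by position and not by function. They include a membrane transporter family (Slc26a3 and Slc26a4), enzymes of mitochondrial, NAD and lipid metabolism (Dld, Nampt, Agmo and Pnpla8), the aryl hydrocarbon receptor Ahr, signalling proteins, matrix proteins and long non-coding RNAs. In the liver, lipid is stored in droplets within hepatocytes, and its amount depends on fatty acid supply, synthesis, oxidation and secretion. A locus can alter such a trait through the protein it encodes or through the amount of its transcript, and only the amount of transcript is measured by these arrays.

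No gene of the R3 interval passed the test between A/J-12SM and A/J livers. By the brightest probe set of each gene, 0 of 58 members had an adjusted p under 0.05 in limma's moderated test, with Benjamini-Hochberg adjustment over all 45037 probe sets. Of all 18194 genes, 0.066% passed (12 genes). The lowest adjusted p among the members was 0.469. At an unadjusted p under 0.05 there were 4 members, Slc26a4, Sh3yl1, Gdap10 and Dus4l, beside 6.78% of all genes. Over the 128 probe sets of the members, 0 passed, beside 0.0555% of all probe sets, and 10 had an unadjusted p under 0.05, beside 6.23% of all probe sets.

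Differences below are given as log2 signal in A/J-12SM minus log2 signal in A/J, so that a positive value is higher in A/J-12SM. Signals were quantile-normalised, because the deposited arrays were not on 1 level. Their trimmed mean signals were 170.5, 185.8 and 178.3 in A/J-12SM and 213.2, 200.5 and 203.8 in A/J. The median log2 difference over all probe sets was -0.22 in the deposited signals, and the values in this text are relative to that shift. A gene is called brighter where the mean of its brighter strain was at or above the median log2 signal of all probe sets, 5.33, and dimmer otherwise. There were 35 brighter and 23 dimmer members. Dus4l was brighter only through A/J-12SM (mean 5.94, against 5.18 in A/J). Pik3cg was brighter only through A/J (mean 5.39, against 5.03 in A/J-12SM). The typical SD between arrays of a strain was 0.207 in probe sets whose mean over all 6 arrays was at or above that median. It was 0.863 in the other probe sets, so that differences were less well measured at low signal. In bulk liver RNA, fewer cells of a type and less RNA per cell cannot be told apart. All 10 hepatocyte markers were among the brighter genes, and 0 of them passed the test. Of their values 7 were above 0. Alb (0.11), Cps1 (0.28) and Pck1 (0.81) were higher in A/J-12SM without overlap, while the arrays of the other hepatocyte markers overlapped. Of all brighter genes, 14.2% did not overlap. Of the 4 pancreatic markers measured, only Cela1 was among the brighter genes, with a difference of 0.04 ± 0.13 (SE). Cpa1, Prss2 and Ctrb1 were dimmer genes. The 12 Kupffer cell and macrophage markers all had values below 0, with a median difference of -0.27, and 0 of them passed the test. Of these, Cd5l (-0.43) and Aif1 (-0.59) were lower without overlap. The mean centred level of the 12 ranged from -0.39 to 0.13 over the A/J-12SM arrays and from -0.02 to 0.31 over the A/J arrays. In the lists for stellate cells, sinusoidal endothelium, bile duct cells, lymphocytes, adipocytes and pancreas, 0 markers passed. Without overlap in these lists were Reln (0.46) and Fcgr2b (0.37), higher in A/J-12SM, and Lyve1 (-0.45), Nkg7 (-1.46) and Cidec (-1.02), lower. Nkg7 and Cidec were dimmer genes.

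The median difference of the 58 members was -0.04, against -0.01 for all genes. There were 25 members with a value above 0 and 33 with a value below 0. Among the 35 brighter members the median was 0.00, and 26 of them lay within 0.25 of no difference, a share that was 74.9% in all brighter genes. The median SE of a brighter member was 0.15 and that of a dimmer one 0.79. The limits of the study's array gene list, 0.75 on the log2 scale, correspond to ratios of 1.68 and 0.595. Past them were 11 members, 4 higher and 7 lower in A/J-12SM. They were 18.97% of the members, beside 13.5% of all genes (6.35% higher and 7.18% lower). Of these 11, only Dus4l and Slc26a4 were brighter genes (2 of 35, beside 2.79% of all brighter genes). Dus4l counted as brighter only through A/J-12SM, the strain in which it was higher. Dus4l, at 0.76, was within the limits under each of the 3 other scalings. The split was 2 higher and 8 lower in the deposited signals, 3 and 7 with each array centred on its median, and 2 and 7 with arrays scaled to one trimmed mean. The strains did not overlap in 7 members, 2 higher and 5 lower in A/J-12SM, or 12.1% of the members beside 12.3% of all genes (5.97% higher and 6.35% lower). With the deposited signals the split was 0 higher and 9 lower, with median centring 3 and 5, and with trimmed-mean scaling 3 and 4. The share of all genes without overlap was 22.5%, 9.37% and 12.3% under these settings. By probe sets, 18 of 128 did not overlap, beside 5386 of all 45037. An exact permutation test of 3 against 3 arrays cannot give a two-sided p below 0.1, and each of these 7 members reached 0.1.

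**Figure D1:**
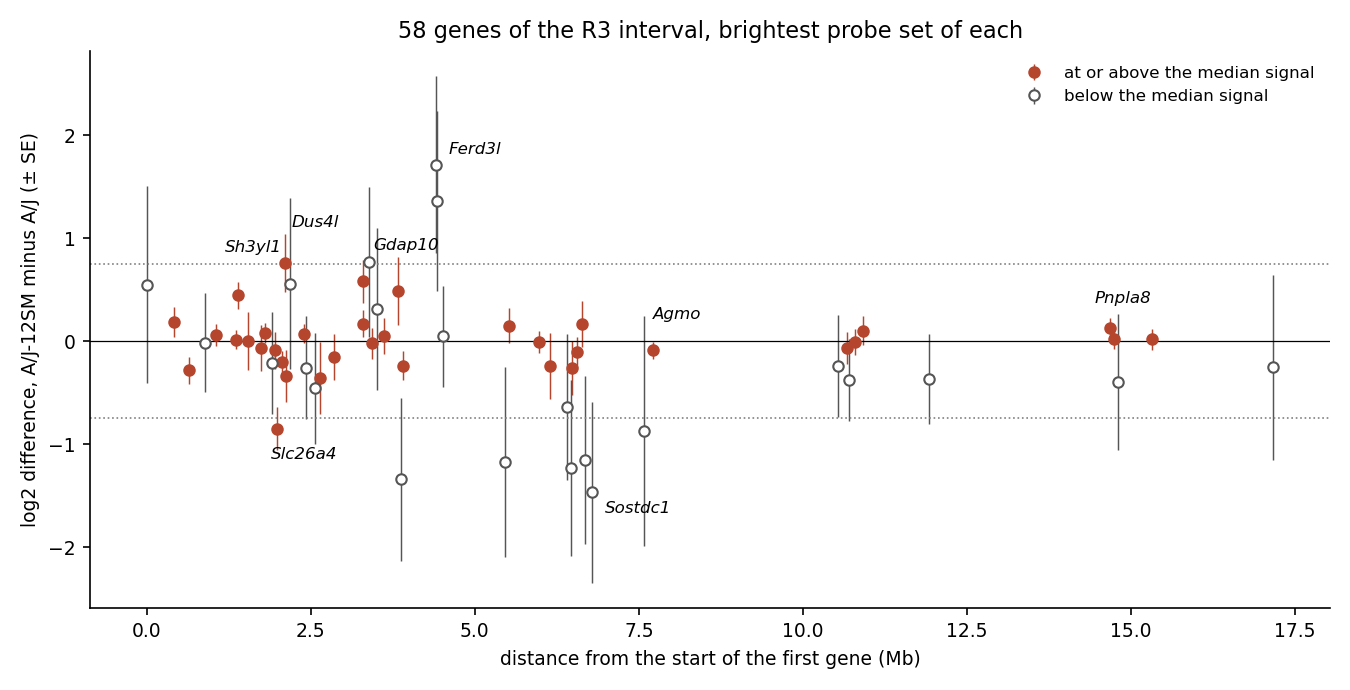
Log2 difference between A/J-12SM and A/J livers (vertical axis, ± SE from limma, 3 arrays per strain) for the 58 R3 genes against distance from the start of the first of them (horizontal axis, Mb). Filled points are the 35 brighter genes and open points the 23 dimmer ones, and dotted lines mark 0.75 in either direction. Among the filled points, Dus4l (0.76) and Slc26a4 (-0.85) lie past the lines, while 9 open points do so with long error bars.

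The largest difference among the brighter members was that of Slc26a4. It encodes pendrin, an exchanger of chloride, iodide and bicarbonate known from the inner ear, the thyroid and the kidney, and lies at chr12:31519814-31560055 on the minus strand. Its normalised log2 signals were 6.48, 5.97 and 6.27 in A/J-12SM and 7.38, 7.03 and 6.86 in A/J. Every A/J-12SM array was thus below every A/J array, and the means were 6.24 ± 0.26 in A/J-12SM and 7.09 ± 0.26 in A/J (SD, n = 3 each). The difference was -0.85 ± 0.21 (SE), a ratio of 0.555, with a 95% interval from -1.32 to -0.38 and an adjusted p of 0.469. In the signals as deposited, the arrays gave 77.7, 62.9 and 69.2 in A/J-12SM and 187.8, 141.4 and 119.7 in A/J. Slc26a4 stood apart under each of the 3 other scalings too, and its difference lay between -1.08 and -0.71 over all 15 alternatives, with a lowest adjusted p of 0.131.

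Slc26a3, the chloride and bicarbonate exchanger of the gut, begins at base 31433142, on the other side of Cbll1 from Slc26a4. It was a dimmer gene, with 3.79, 4.30 and 5.27 in A/J-12SM and 4.96, 4.25 and 4.80 in A/J. These overlapped, and the difference of -0.22 had a 95% interval from -1.33 to 0.90. Its 3 other probe sets, all dimmer, gave -0.80, 0.52 and -1.74, and their arrays overlapped too. Among the 8 other SLC26 exchangers measured, 0 passed the test and the values ranged from -0.79 to 1.66. The highest value was that of Slc26a6, an exchanger of chloride, oxalate and bicarbonate, which had 5.71, 6.03 and 5.55 in A/J-12SM and 4.18, 5.14 and 3.0 in A/J (adjusted p = 0.654). Slc26a6 was the only 1 of these 8 whose arrays did not overlap, beside 12.3% of all genes. Slc26a1, an exchanger of sulfate in the liver, gave -0.12 ± 0.10.

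The promoter window of Slc26a4 is shown because it holds a TATAAA box, printed in capitals. Here a promoter window is 250 bases before to 50 bases after a transcript start of the gene, taken from RefSeq (GRCm38.p6, C57BL/6J, neither A/J nor SM/J), 5′ to 3′ along the gene. Such a start can lie inside the outer bounds given for a gene, as it does for Slc26a4 and Dus4l. The Slc26a4 window is at chr12:31559935-31560234 on the minus strand.
Slc26a4: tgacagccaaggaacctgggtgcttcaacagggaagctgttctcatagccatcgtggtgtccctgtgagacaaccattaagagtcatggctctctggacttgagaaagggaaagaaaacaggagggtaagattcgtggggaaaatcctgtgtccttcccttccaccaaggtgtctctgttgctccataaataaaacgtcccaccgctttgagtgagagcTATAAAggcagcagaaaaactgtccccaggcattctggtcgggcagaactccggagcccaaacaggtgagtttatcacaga
Of the 58 members, 53 had a window. The letters TATAAA, on either strand, were in 10 of them and in 15.7% of the windows of all 27025 genes. Besides Slc26a4 these were Slc26a3, Gdap10, Gpr22, Hdac9, Meox2, Twist1, Ferd3l, Agr3 and 9130015A21Rik.

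Sh3yl1, an SH3-domain protein that binds phosphoinositides, lies at chr12:30911669-30960160 on the plus strand. It is among the genes that the study followed in epididymal fat. In fat, the study's array gave Sh3yl1 as lower in A/J-12SM, but Sh3yl1 was not among the genes reported to differ by RT-PCR. In liver, the normalised log2 signals of Sh3yl1 were 8.38, 8.51 and 8.42 in A/J-12SM and 7.78, 8.0 and 8.20 in A/J. All A/J-12SM arrays were above all A/J arrays. The difference was 0.44 ± 0.13 (SE), a ratio of 1.36, with a 95% interval from 0.15 to 0.74 and an adjusted p of 0.612. As deposited, its signals were 296.0, 350.6 and 315.1 in A/J-12SM and 249.5, 270.8 and 312.9 in A/J, which overlapped, and the difference on that scale was 0.21.

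Sh3yl1 has a head-to-head neighbour, Acp1, which encodes the low molecular weight protein tyrosine phosphatase and is read from the minus strand. Acp1 had 10.76, 10.71 and 10.50 in A/J-12SM and 10.68, 10.59 and 10.66 in A/J. These overlapped, and the difference was 0.01, with a 95% interval from -0.19 to 0.22. The 5 other Acp1 probe sets gave values from -0.22 to 0.03. The starts of both genes are so close that 156 bases of their promoter windows are the same DNA. That stretch is in capitals in the Sh3yl1 window at chr12:30911419-30911718, plus strand.
Sh3yl1: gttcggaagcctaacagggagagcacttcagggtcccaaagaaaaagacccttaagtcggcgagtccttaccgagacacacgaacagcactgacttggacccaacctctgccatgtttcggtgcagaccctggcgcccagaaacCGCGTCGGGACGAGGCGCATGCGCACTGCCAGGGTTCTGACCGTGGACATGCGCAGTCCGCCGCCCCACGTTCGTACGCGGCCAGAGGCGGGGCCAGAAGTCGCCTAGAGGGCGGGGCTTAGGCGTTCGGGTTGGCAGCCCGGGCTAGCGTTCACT
Of the pair that shares this stretch, only Sh3yl1 stood apart between the strains.

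Dus4l encodes a dihydrouridine synthase, which modifies uridines of transfer RNA. It lies at chr12:31640050-31654866 on the minus strand. Its brightest probe set had 5.57, 6.14 and 6.12 in A/J-12SM and 5.19, 5.14 and 5.22 in A/J, so that the strains did not overlap. The difference was 0.76 ± 0.28 (SE), a ratio of 1.69, with a 95% interval from 0.13 to 1.39 and an adjusted p of 0.748. In the signals as deposited, the arrays gave 40.6, 70.4 and 62.1 in A/J-12SM and 42.8, 40.4 and 35.7 in A/J, which overlapped. The difference was 0.51 on that scale, the lowest value over the alternatives. The 3 other probe sets of Dus4l gave 0.22, 0.35 and 1.06, each with overlapping arrays. The study lists coding variants of A/J and of SM/J, each against C57BL/6, and Dus4l is listed for A/J. The other dihydrouridine synthases, Dus1l, Dus2 and Dus3l, gave 0.21, -0.02 and 0.04, and 0 of 3 passed the test.

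Cog5, a subunit of the conserved oligomeric Golgi complex, is the head-to-head partner of Dus4l. Both genes overlap at their starts. Cog5 had 5.56, 5.53 and 5.34 in A/J-12SM and 5.97, 5.70 and 5.78 in A/J. The A/J-12SM arrays all lay below the A/J arrays, with a difference of -0.34 ± 0.25 and a 95% interval from -0.91 to 0.23. Its 2 other probe sets, both dimmer, gave -1.36 and -0.88 with overlapping arrays. Of the 7 other subunits of the complex, Cog1 to Cog4 and Cog6 to Cog8, 0 passed the test and their values ran from -0.20 to 0.10. Dus4l and Cog5 thus had values of opposite sign, and their windows share 142 bases, in capitals in the Dus4l window at chr12:31654777-31655076, minus strand.
Dus4l: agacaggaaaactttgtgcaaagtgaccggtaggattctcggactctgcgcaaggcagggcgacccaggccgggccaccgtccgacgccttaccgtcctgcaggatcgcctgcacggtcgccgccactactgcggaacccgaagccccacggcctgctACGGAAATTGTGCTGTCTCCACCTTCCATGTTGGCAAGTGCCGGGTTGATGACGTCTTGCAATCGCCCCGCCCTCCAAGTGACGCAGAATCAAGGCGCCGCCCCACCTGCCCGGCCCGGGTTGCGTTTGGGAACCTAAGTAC
The shared stretch holds TGACGT, the core of the cAMP response element, which was in 7 of the 53 member windows and in 8.37% of all windows.

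Head-to-head pairs, which the choice of members did not use, were counted by overlap of the windows. There were 7 pairs of members with overlapping windows on opposite strands, 14 members in all. Counting any opposite-strand gene, 17 of the 53 members with a window had such a neighbour, or 32.1%, against 15.5% of the 14368 measured genes with a window. These shares were not tested against each other. Partners in 3 pairs had both genes brighter besides the pair of Sh3yl1 and Acp1. These were Cog5 with Dus4l, Ankmy2 (0.17) with Bzw2 (-0.11), and Dock4 (0.10) with Zfp277 (-0.01). The other 3 pairs had a dimmer partner.

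**Figure D2:**
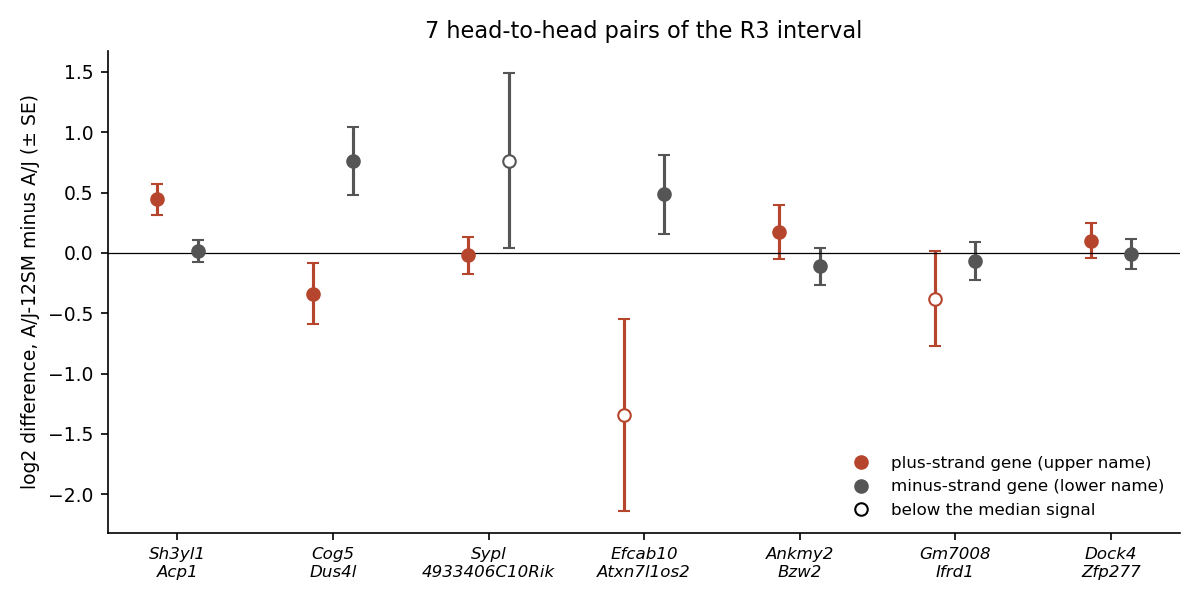
Log2 difference between A/J-12SM and A/J livers (± SE, 3 arrays per strain) for both genes of the 7 head-to-head pairs, with the plus-strand gene named above the minus-strand gene. Open points are dimmer genes. Sh3yl1 is at 0.44 beside Acp1 at 0.01, and Cog5 at -0.34 beside Dus4l at 0.76.

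Gdap10 is a long non-coding RNA in RefSeq that lies inside the bounds of Nampt on the same strand, at chr12:32824116-32826919. It is another of the genes followed in epididymal fat by the study. Its signals were 9.17, 8.35 and 8.57 in A/J-12SM and 7.88, 8.09 and 8.38 in A/J. The lowest A/J-12SM array was below the highest A/J array, so that the strains overlapped. The difference was 0.58 ± 0.21 (SE), with a 95% interval from 0.12 to 1.04 and an adjusted p of 0.734. Without replicate 1 of A/J-12SM, the highest array, the difference was 0.35. As Gdap10 lies within Nampt, transcripts that retain Nampt sequence there and transcripts of Gdap10 cannot be told apart by this 1 probe set.

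Nampt encodes the rate-limiting enzyme of NAD salvage from nicotinamide. Its brightest probe set had 9.07, 8.81 and 8.97 in A/J-12SM and 8.52, 8.94 and 8.88 in A/J, which overlapped. The difference was 0.17, with a 95% interval from -0.13 to 0.47, and the 2 other probe sets gave 0.13 and -0.21. Of 15 other genes of NAD synthesis and use, 0 passed the test, with a median of 0.00. Nmnat3, a nicotinamide mononucleotide adenylyltransferase of mitochondria, gave -0.37 and the NAD kinase Nadk 0.22, both without overlap between A/J-12SM and A/J arrays. Nmnat1 (-0.27) and Parp1 (-0.15) were also lower without overlap. Of the 15 genes, 1 was thus higher and 3 were lower without overlap. The share in either direction was 12.3% of all genes and 14.2% of all brighter genes, and 13 of the 15 were brighter. The window of Gdap10, at chr12:32823866-32824165 on the plus strand, is shown for contrast with the CpG-rich windows of Sh3yl1 and Dus4l.
Gdap10: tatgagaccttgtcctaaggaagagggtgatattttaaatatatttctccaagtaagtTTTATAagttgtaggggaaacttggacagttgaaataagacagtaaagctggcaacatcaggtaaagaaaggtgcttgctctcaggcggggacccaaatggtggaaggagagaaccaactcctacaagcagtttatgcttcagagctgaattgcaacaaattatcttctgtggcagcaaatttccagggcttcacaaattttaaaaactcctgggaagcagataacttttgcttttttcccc
The capitals are TATAAA read on the opposite strand. This window holds 1 CpG, that of Slc26a4 holds 6, and those of Sh3yl1 and Dus4l hold 28 and 27.

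**Figure D3:**
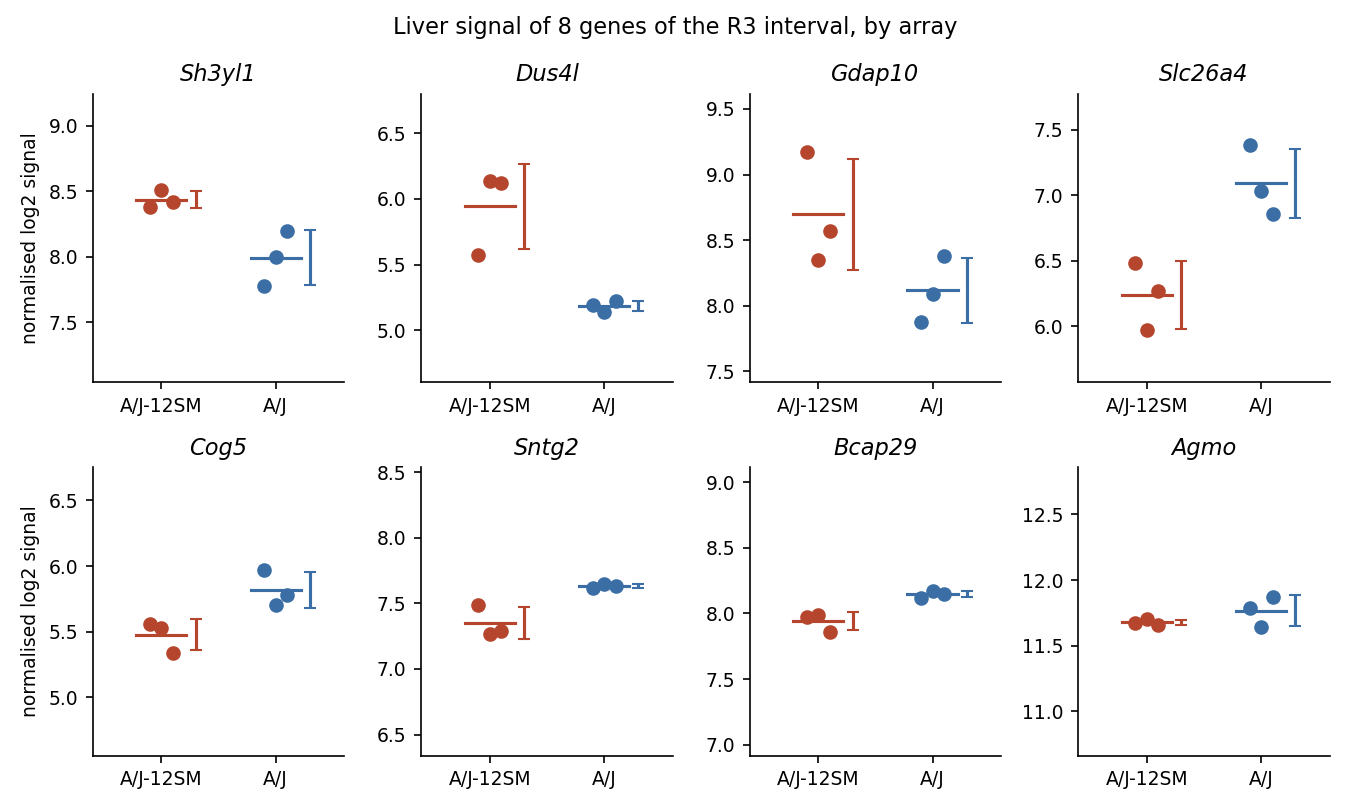
Normalised log2 signal (vertical axes, all of the same length in log2 units) on the 3 A/J-12SM arrays, left, and the 3 A/J arrays, right, for 8 R3 genes. Points are arrays, horizontal bars are means and brackets are ± 1 SD. The strains do not overlap for Sh3yl1, Dus4l, Slc26a4, Cog5, Sntg2 and Bcap29, and do so for Gdap10 and Agmo.

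A pair of brighter members remained with arrays that did not overlap. Sntg2, a syntrophin of the dystrophin complex, had 7.49, 7.27 and 7.29 in A/J-12SM and 7.62, 7.65 and 7.63 in A/J. All A/J-12SM arrays were the lower, with a difference of -0.28 ± 0.13 and a 95% interval from -0.57 to 0.01. Bcap29, a protein of the endoplasmic reticulum membrane, had 7.97, 7.99 and 7.86 in A/J-12SM and 8.12, 8.17 and 8.15 in A/J. Again the A/J-12SM arrays were below the others, with a difference of -0.21 ± 0.11 and an interval from -0.45 to 0.04. Both stood apart in the same direction under each of the 3 other scalings.

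The 10 brightest members are given next. Agmo, which cleaves the ether bond of alkylglycerols with tetrahydrobiopterin as cofactor, had 11.67, 11.70 and 11.66 in A/J-12SM and 11.79, 11.64 and 11.87 in A/J. Its difference of -0.09 had a 95% interval from -0.28 to 0.10. Of the 9 enzymes of tetrahydrobiopterin and ether lipid metabolism, 0 passed the test, and their values ran from -0.23 for the fatty aldehyde dehydrogenase Aldh3a2 to 0.15 for Gch1.

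Pnpla8, a calcium-independent phospholipase A2 of mitochondria and peroxisomes, had 11.23, 11.06 and 11.35 in A/J-12SM and 11.19, 11.13 and 11.26 in A/J. The arrays overlapped and the difference was 0.02, with a 95% interval from -0.19 to 0.24. Its second probe set gave -0.24, with all A/J-12SM arrays below the A/J arrays. Dnajb9, a co-chaperone of BiP in the endoplasmic reticulum, had 10.82, 10.85 and 11.05 in A/J-12SM and 10.85, 10.80 and 10.68 in A/J, which overlapped. Its difference was 0.13, with an interval from -0.08 to 0.34.

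Dld is the dihydrolipoamide dehydrogenase subunit that the pyruvate, 2-oxoglutarate and branched-chain dehydrogenases share with the glycine cleavage system. It had 10.73, 10.85 and 10.77 in A/J-12SM and 10.53, 10.83 and 10.75 in A/J. The overlap was broad, and the difference of 0.08 had a 95% interval from -0.14 to 0.29. Of its 11 measured partners, 2 had values above 0 and 9 below 0, and 0 passed the test, with a median of -0.07. The largest of those values were -0.24 for Gldc, the decarboxylase of the glycine cleavage system, and -0.22 for Dlst, the succinyltransferase of the 2-oxoglutarate complex. The arrays of Gldc overlapped. Without overlap, 1 partner was higher (Ogdh, 0.15) and 3 were lower (Dlst, Bckdha and Gcsh), beside 14.2% of all brighter genes in either direction. All 11 partners were brighter genes, and Dlst too lies on chromosome 12.

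The remaining members among the 10 brightest had values from -0.02 to 0.15, namely Hbp1, Sypl, Snx13, Stxbp6 and Ahr besides Acp1. Hbp1, an HMG-box repressor, gave 0.07 and Snx13, a sorting nexin, 0.15. Over the 35 brighter members, 18 had a 95% interval within 0.5 of no difference and 4 within 0.25. An unpassed test here does not show that the strains were alike, and the intervals give the differences that these arrays leave possible.

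**Figure D4:**
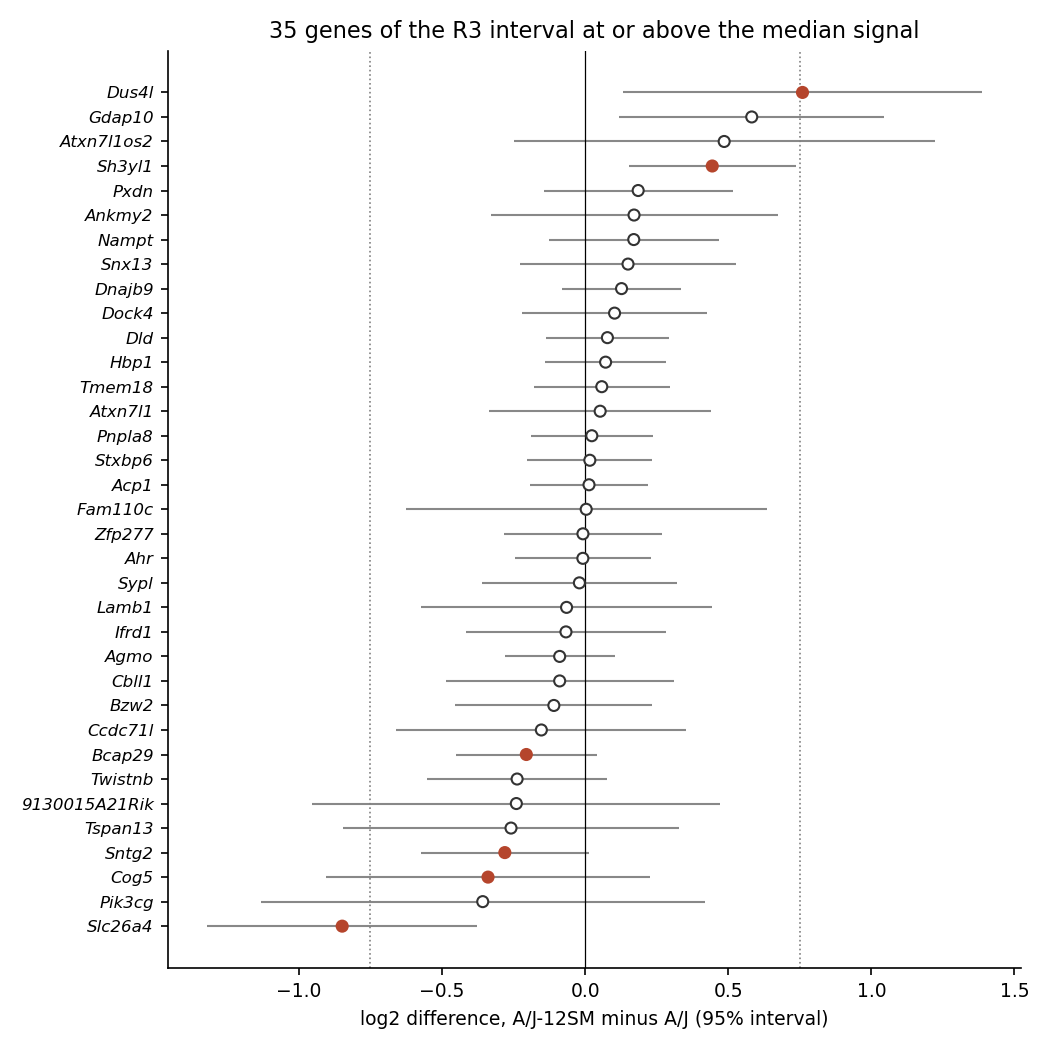
Log2 difference between A/J-12SM and A/J livers (horizontal axis) with its 95% interval from limma for the 35 brighter R3 genes, ordered by difference. Filled points are genes whose arrays did not overlap between the strains, and dotted lines mark 0.75 in either direction. Slc26a4 (-0.85) and Dus4l (0.76) are at the ends of the order.

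Ahr encodes the aryl hydrocarbon receptor, a ligand-activated transcription factor that induces Cyp1a genes with its partner Arnt. Its brightest probe set had 8.77, 8.98 and 9.05 in A/J-12SM and 8.98, 8.89 and 8.95 in A/J. The difference was -0.01, with a 95% interval from -0.24 to 0.23. The second probe set of Ahr gave -0.54, with an interval from -1.20 to 0.11 and overlapping arrays. Among 8 measured partners and targets of the receptor, 0 passed the test and the median was 0.00. Cyp1a2, a P450 enzyme that Ahr induces, had 12.18, 12.59 and 12.47 in A/J-12SM and 11.96, 12.07 and 11.88 in A/J. All A/J-12SM arrays were above the A/J arrays, with a difference of 0.44 ± 0.11 (adjusted p = 0.485). Nqo1, a quinone reductase that Ahr and NRF2 induce, had 6.63, 6.50 and 6.24 in A/J-12SM and 7.36, 7.12 and 6.96 in A/J. Here all A/J-12SM arrays were below the others, with a difference of -0.68 ± 0.18 (adjusted p = 0.548). Cyp1a1 gave 0.14 ± 0.26. Targets of the receptor thus had values of either sign.

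Of the signalling members, Prkar2b, the RIIβ regulatory subunit of the cAMP-dependent protein kinase, was dimmer. It had 3.67, 3.54 and 3.89 in A/J-12SM and 3.98, 3.90 and 3.99 in A/J. The arrays did not overlap, but the difference of -0.26 had a 95% interval from -1.38 to 0.86, as limma moderates its variance toward that of other dim probe sets. Its other probe sets, both dimmer, gave -1.93, with arrays that did not overlap, and 1.24. Of the 8 other subunits and partners of the kinase, 0 passed the test, with values from -0.10 to 0.28, and Prkar2a, the RIIα subunit, was at 0.00.

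Pik3cg encodes the catalytic p110γ subunit of phosphoinositide 3-kinase, found mainly in leukocytes. It had 5.19, 4.72 and 5.19 in A/J-12SM and 5.47, 5.75 and 4.95 in A/J. These overlapped, and the difference was -0.36, with a 95% interval from -1.13 to 0.42. The 12 macrophage markers had values below 0 as well, with the median of -0.27 given above, and the part of cell number in the Pik3cg value was not tested. Of 8 other subunits of the kinase, 0 passed the test. Pik3r2, a regulatory subunit, gave -0.36 with arrays that did not overlap.

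Among the matrix and adhesion genes, Pxdn encodes peroxidasin, which crosslinks collagen IV. It had 7.15, 7.47 and 7.29 in A/J-12SM and 7.12, 7.19 and 7.05 in A/J. The arrays overlapped by little, and the difference was 0.19, with a 95% interval from -0.15 to 0.52. With arrays centred on their median, Pxdn stood apart, higher in A/J-12SM. Lamb1, the laminin β1 chain of basement membranes, gave -0.06, with an interval from -0.57 to 0.44. Of 13 measured laminin and basement membrane partners, 0 passed the test, with 6 values above 0 and 7 below 0. Of the 13, 11 were brighter genes. The strains did not overlap in 3 of the 13, beside 12.3% of all genes and 14.2% of all brighter genes. These were Lama1 (0.58) and Col4a1, higher in A/J-12SM, and Lamb3 (-0.63), lower. Col4a1, a collagen IV chain, had 8.01, 8.11 and 8.19 in A/J-12SM and 7.63, 7.75 and 7.85 in A/J, arrays that did not overlap (difference 0.36 ± 0.12, adjusted p = 0.706).

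Besides Sh3yl1 and Gdap10, the R3 genes on the study's array list for epididymal fat were mostly dim in liver. Of the R3 genes on that list, the study reported significant RT-PCR differences between A/J and A/J-12SM fat for Gdap10, Nrcam, Stxbp6 and Nova1. Of these only Nrcam also differed in R3 congenic mice, and the study kept it as a candidate. Cdhr3, a cadherin, gave 0.31 (95% interval from -1.45 to 2.08), and Efcab10, an EF-hand protein, -1.34 (from -3.12 to 0.43). Nrcam, a neuronal cell adhesion molecule, had 2.83, 4.74 and 3.13 in A/J-12SM and 4.55, 3.68 and 3.68 in A/J by its brightest probe set, with a difference of -0.40. A second Nrcam probe set gave -1.74, with 3.39, 3.73 and 1.24 in A/J-12SM all below 4.02, 4.50 and 5.06 in A/J, and the 2 others gave -0.56 and 0.44. The RNA-binding protein Nova1, known from neurons, gave -0.25 and 1.68 by its 2 probe sets, with overlapping arrays in both. Dgkb, also on the array list for fat, had no probe set of its own.

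Stxbp6, which binds SNARE proteins of membrane fusion, was the bright one of these genes. It had 8.97, 9.03 and 9.04 in A/J-12SM and 8.91, 8.96 and 9.12 in A/J, with a difference of 0.02 and a 95% interval from -0.20 to 0.23. Its second probe set had 7.33, 7.36 and 7.40 in A/J-12SM and 7.57, 7.55 and 7.56 in A/J. There all A/J-12SM arrays were the lower, with a difference of -0.19 and an interval from -0.47 to 0.08.

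Probe sets of 1 gene did not always have the same sign. Of 18 members with several brighter probe sets, 4 had differences that spread over more than 0.5 (Sypl, Twistnb, Dus4l and Ahr), and the median spread was 0.29. Sypl, a synaptophysin-like vesicle protein, had 6 brighter probe sets. One of them had 7.53, 7.25 and 7.59 in A/J-12SM and 7.20, 6.51 and 6.40 in A/J, with a difference of 0.75 ± 0.22 and an adjusted p of 0.612. Another had 7.55, 7.39 and 7.80 in A/J-12SM and 7.86, 7.80 and 7.99 in A/J, with a difference of -0.31 ± 0.14. The strains did not overlap in either, with opposite signs, and the brightest probe set gave -0.02. Twistnb, a subunit of RNA polymerase I, gave -0.24, -0.39 and 0.46, and the arrays stood apart only in the second. Cbll1, a ubiquitin ligase, gave -0.09 by its brightest probe set and 0.38 by another, whose arrays were all higher in A/J-12SM. Whether SM/J sequence under the probes plays a part in such differences was not tested. Of the members, 9 are in the study's lists of coding variants of A/J or SM/J against C57BL/6, and Pxdn is listed for both strains. Whether each listed variant differs between A/J and SM/J was not examined here. Among the 9, 1 stood apart, Dus4l, or 11.1%, beside 12.2% of the members without a listed variant and 12.3% of all genes.

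**Figure D5:**
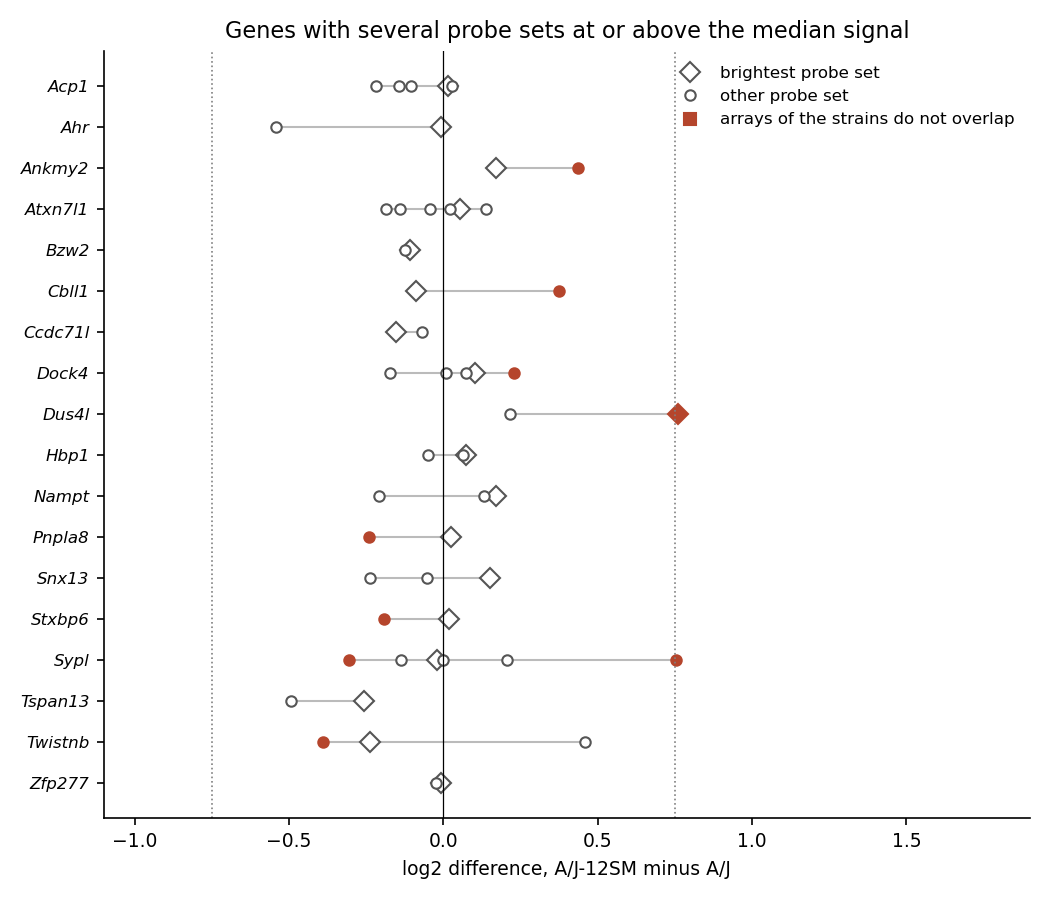
Log2 difference between A/J-12SM and A/J livers (horizontal axis) for each brighter probe set of the 18 R3 genes with several of them. Diamonds are the brightest probe sets and filled symbols those whose arrays did not overlap. Sypl spreads from -0.31 to 0.75 and Zfp277 from -0.03 to -0.01.

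The dimmer members included genes of development and of other tissues, such as the transcription factors Twist1, Ferd3l, Meox2 and Myt1l and the goblet cell protein Agr2. Of the 23, 9 were past 0.75, beside 31.9% of all dimmer genes, and 1 stood apart, Prkar2b, beside 9.04% of all dimmer genes. With trimmed-mean scaling Prkar2b overlapped between the strains. The extremes were Ferd3l at 1.72 (95% interval from -0.21 to 3.64) and Sostdc1, an antagonist of BMP and Wnt signals, at -1.47 (from -3.43 to 0.50). A second Sostdc1 probe set gave 2.21, so that its 2 probe sets had opposite signs. Long non-coding RNAs made up 7 of the members, and of these only Gdap10 had an unadjusted p under 0.05.

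Other genes of chromosome 12 passed the test. In the R2 interval, the neighbouring stretch that another congenic strain carries, 2 of 98 genes passed, and on the remainder of the chromosome 3 of 468. Of all 18194 genes, 12 passed (0.066%), and 7 of these lay off chromosome 12 or had no position (7 of 17572). Among brighter genes, 2 of 35 R3 genes were past 0.75 (2.79% of all brighter genes), against 8 of 66 in R2 and 20 of 305 on the remainder. The strains did not overlap in 6 of 35 brighter R3 genes (14.2% of all brighter genes), against 18 of 66 and 66 of 305. These shares were not tested against each other.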

How the data were processed

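Liver RNA of male A/J-12SM and A/J mice was hybridised to 6 Affymetrix arrays of 1 colour. There were 3 arrays a strain, and the RNA of 3 mice was pooled for each. The values that the authors deposited are intensities on a linear scale, made with MAS5 according to the submitters' processing notes. MAS5 corrects the background and combines the probes of a probe set. The sources used here give neither its version nor its scaling. How many arrays there are limits the precision. The series text names 9 mice, without saying whether for each strain or in all, so whether arrays share mice is not known here, and p-values measure the spread between these pools.

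From these values, log2 signals were quantile-normalised. Of 45101 probe sets, 64 controls were left out. The design made this the main setting unless the deposited arrays were on 1 level, which they were not. Differences were tested in R 4.3.3 by means of limma 3.58.1, using lmFit and then eBayes with trend=TRUE, with Benjamini-Hochberg adjustment over 45037 probe sets, and were called at an adjusted p under 0.05. The step was also run on simulated log2 values with independent normal noise and no shift in level between arrays. That run does not show how well the fit does on these arrays. Each gene was read by its brightest probe set over all 6 arrays. Of the probe sets, 34945 name 1 gene, 932 several and 9160 none. By gene ID, 18032 genes matched the GRCm38.p6 annotation. Promoter windows came from RefSeq. Figures were drawn with matplotlib 3.10.9 under Python 3.11.15.

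Genes named in the text were brighter members that stood apart or passed 0.75, genes on the study's array list for fat, members chosen for their role and the 10 brightest. Twistnb, Cbll1, Ferd3l, Sostdc1, partners in head-to-head pairs and the genes of other lists were named after their values were seen. Members, lists and tests were chosen with earlier results of these data known. Alternatives were the deposited signals, 2 other scalings, an offset, a filter on dim probe sets, 1 prior variance, the methods' t-test, a replicate block, the omission of each array, the mean over probe sets and other limits.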

Additional observations from a re-analysis of the deposited data

How the results depend on the processing

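The count of R3 genes and of R3 probe sets that passed limma's test was 0 under every alternative run, among them the deposited signals, the other scalings, the methods' t-test after Benjamini-Hochberg adjustment, each omitted array and, for genes, the mean over probe sets. Between 3 and 6 members had an unadjusted p under 0.05, and the lowest adjusted p of a member was 0.131, for the deposited signals. By the methods' t-test, 6 members had an unadjusted p under 0.05. With the replicate number as a block, 0 of 58 members were called, with 4 at an unadjusted p under 0.05, and 1 of the 10 hepatocyte markers was called. In the main setting, 6.78% of all genes had an unadjusted p under 0.05. The shares of all genes under these other settings are not given here, so the counts cannot be read against them. The labels give same-numbered arrays nothing in common but that number. Their deviations from the strain means correlated at -0.06, 0.09 and 0.16 over probe sets at or above the median signal. Arrays of unlike number were not compared, and whether same-numbered arrays were handled together was not tested.

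The count of members past the limits, 11, was 7 with a limit of 1 on the log2 scale (8.52% of all genes), 5 after 9.20 was added to every signal as an offset (3.17% of all genes) and 2 of the 38 members left without dim probe sets (2.94% of all genes). The count without overlap, 7, was 10 to 18 when 1 array was left out. It was 11, 12 and 14 without A/J-12SM replicate 1, 2 and 3, and 12, 10 and 18 without A/J replicate 1, 2 and 3. By construction 3 against 2 arrays overlap less often, and the share of all genes was then 19.9% to 24.2%. Leaving out 1 array gave 9 to 12 members past the limits and median differences from -0.11 to 0.00. The median difference of the members was -0.25 in the deposited signals, where that of all genes was -0.22.

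None of the 399 values of the 27 named genes under other settings passed the test, and none had the opposite sign with both values more than 1 SE from 0. A value within 1 SE of 0 has no direction here.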
